A study of Mus musculus with 16 samples.

Results

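Protocadherins outside the gene clusters are cadherin-like adhesion proteins that are each encoded by a gene of its own, unlike the alpha, beta and gamma protocadherins, whose exons lie side by side. The 9 members described here, *Pcdh1*, *Pcdh7*, *Pcdh8*, *Pcdh9*, *Pcdh10*, *Pcdh17*, *Pcdh18*, *Pcdh19* and *Pcdh20*, were taken by gene symbol from the 30386 genes of the expression table. They were chosen by family name, but with earlier results of these data in view, including the fitted difference of *Pcdh19* between the transgenes, so the differences of the members between the transgenes and between sets of samples are given as a description, with no test. A member is called below where the fit across all genes put it past the threshold, and that too is a description.

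The samples were neural stem/progenitor cell (NSPC) lines from the subventricular zone, the main neurogenic niche of the adult brain, of 3-month-old mice. They carried either a *GFP* transgene (*GFP*-NSPCs, the control, n = 8) or a mouse *Dbx2* transgene (*Dbx2*-NSPCs, n = 8), both expressed constitutively, and all had been derived as bulk cultures of C57BL/6J/Babr cells nucleofected with a pTP6 plasmid and selected with puromycin. They were grown as non-adherent neurospheres with EGF and FGF2, and the RNA was sequenced from the 3′ ends of polyadenylated transcripts. The study used 2 independent pairs of lines and repeated the culture for each pair, but the labels give only a replicate number from 1 to 8. Replicates 1 to 4 and 5 to 8 were therefore compared as sets of numbers, and which line a sample came from is not stated, so the spread within a set may be technical. Each group is thus a model of a few selected cultures in growth medium rather than of the niche. Depth ranged from 1803928 to 3258885 reads in *GFP*-NSPCs and from 2214008 to 3293285 reads in *Dbx2*-NSPCs. Levels are given as CPM, the reads of a gene relative to all reads of its sample, and 3 reads, taken as the floor of detection, were worth 0.911 to 1.66 CPM.

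Protocadherins outside the clusters span the membrane and carry extracellular cadherin repeats that bind, mostly weakly, to the same protein on a neighbouring cell. Most of them belong to the delta subfamilies, of which delta 1 (*Pcdh1*, *Pcdh7* and *Pcdh9* here) and delta 2 (*Pcdh8*, *Pcdh10*, *Pcdh17*, *Pcdh18* and *Pcdh19*) differ in the number of these repeats and in conserved stretches of the cytoplasmic tail. In the developing brain they mark regions and axon tracts and are known for cell sorting, axon growth and synapse formation. Delta 2 members can recruit the WAVE complex, which drives branched actin assembly. *Dbx2*, the gene of the transgene, encodes a homeodomain transcription factor.

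In replicates 1 to 4, *Dbx2* itself averaged 120 ± 35.6 CPM with the *GFP* transgene and 173 ± 41.4 CPM with the *Dbx2* transgene (SD, n = 4 each). In replicates 5 to 8 these levels were 34.0 ± 3.96 and 136 ± 16.9 CPM. The transgene groups overlapped in the first set and stood apart in the second. The log2 difference was 0.54 (95% interval 0.2 to 0.88) in the first and 1.99 (1.65 to 2.33) in the second. Both were called. The endogenous gene and the transgene cannot be told apart in these counts. All 8 NSPC markers tested, among them *Nes*, *Sox2* and *Egfr*, passed the filter on low levels. Of the 8 as a list, 4 were called lower in *Dbx2*-NSPCs over all samples and 0 higher, where 7.78% of all tested genes were called lower. Summed over the 8, the level was 6639 to 7117 CPM in *GFP*-NSPCs and 4917 to 5939 CPM in *Dbx2*-NSPCs of replicates 1 to 4. In replicates 5 to 8 it was 5546 to 5855 and 4313 to 4807 CPM. The microglial markers *Aif1*, *Csf1r* and *Ptprc*, the endothelial *Cldn5* and *Cdh5* and the mural *Pdgfrb* and *Rgs5* were at or under 3 reads in each sample. They were 3 of 4 microglial, 2 of 4 endothelial and 2 of 5 mural or fibroblast markers. The whole lists summed to at most 1.63 CPM (microglial) and 6.07 CPM (mural), both in *Dbx2*-NSPCs of replicates 1 to 4. The endothelial list reached 8.08 CPM in those of replicates 5 to 8. Summed over 3 ependymal markers, the level was 9.56 to 21.4 CPM in *GFP*-NSPCs and 14.4 to 34.7 CPM in *Dbx2*-NSPCs. Of 2 tested, 1 was called higher. *Sox10* too was at or under 3 reads throughout. The 7 oligodendrocyte-lineage markers as a list, which also holds *Olig1*, *Olig2* and *Pdgfra*, were not near the floor. Their summed level was 2795 to 3165 CPM in *GFP*-NSPCs and 2284 to 2698 CPM in *Dbx2*-NSPCs of replicates 1 to 4, and 2455 to 3182 and 2817 to 2959 CPM in replicates 5 to 8. Summed over 5 astrocyte markers, the level was 520 to 743 CPM in *GFP*-NSPCs and 543 to 701 CPM in *Dbx2*-NSPCs of replicates 1 to 4, against 347 to 423 and 777 to 889 CPM in replicates 5 to 8. Over 8 neuroblast or neuronal markers it was 842 to 1132 and 692 to 966 CPM in replicates 1 to 4, and 1297 to 1497 and 901 to 1135 CPM in replicates 5 to 8. Over all samples, 2 of the astrocyte markers were called higher in *Dbx2*-NSPCs and 1 lower, and 1 of the neuroblast or neuronal markers lower. Of the oligodendrocyte-lineage markers 0 were called, and of all tested genes 8.03% were called higher and 7.78% lower. The part of these cell types in the differences below was not tested, and in bulk cultures fewer cells of a type and less RNA per cell cannot be told apart.

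The genes lie on 5 chromosomes of GRCm38. *Pcdh8* (chr14:79766775-79771312), *Pcdh17* (chr14:84443563-84539002), *Pcdh20* (chr14:88464743-88471396) and *Pcdh9* (chr14:93013410-93890679) follow each other on chromosome 14, where only 2 other tested genes lie between *Pcdh8* and *Pcdh9*, a distance of 13.2 Mb. *Pcdh10* (chr3:45378398-45435623) and *Pcdh18* (chr3:49743296-49757325) are 4.31 Mb apart with 0 tested genes between them. *Pcdh7* (chr5:57717967-58133230) and *Pcdh19* (chrX:133582860-133688987) are each the only member on their chromosome, as is *Pcdh1*, whose place is given with its values. The annotation has other genes within or across 7 of the 9 loci, but 0 of these overlapping genes passed the filter.

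RefSeq promoter sequences (GRCm38.p6) were held for 8 of the 9 members. The 250 bases before the start are shown for *Pcdh19* and *Pcdh9*, which were lower in *Dbx2*-NSPCs of both sets, and for *Pcdh10* and *Pcdh17*, whose differences had opposite signs in the sets (that of *Pcdh17* in replicates 5 to 8 was not called). They are written 5′ to 3′ in the direction of the gene, and capitals mark CCAAT or its complement ATTGG, the letters of the CCAAT box, a common promoter element.
*Pcdh19*, chrX:133688994-133689243, minus strand: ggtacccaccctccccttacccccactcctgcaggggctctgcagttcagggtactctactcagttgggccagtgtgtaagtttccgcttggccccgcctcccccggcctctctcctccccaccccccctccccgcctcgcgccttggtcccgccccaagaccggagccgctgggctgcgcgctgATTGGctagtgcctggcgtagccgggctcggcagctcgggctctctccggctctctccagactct
*Pcdh9*, chr14:93890680-93890929, minus strand: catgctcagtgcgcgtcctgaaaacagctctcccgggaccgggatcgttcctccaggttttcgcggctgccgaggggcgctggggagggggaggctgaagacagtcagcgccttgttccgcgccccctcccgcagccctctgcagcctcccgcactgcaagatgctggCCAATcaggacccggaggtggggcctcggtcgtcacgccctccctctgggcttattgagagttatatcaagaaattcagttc
*Pcdh10*, chr3:45378148-45378397, plus strand: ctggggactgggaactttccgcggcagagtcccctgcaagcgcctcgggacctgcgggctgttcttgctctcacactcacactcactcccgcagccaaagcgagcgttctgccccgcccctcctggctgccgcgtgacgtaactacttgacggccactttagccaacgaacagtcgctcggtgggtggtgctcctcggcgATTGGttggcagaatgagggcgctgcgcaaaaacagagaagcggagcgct
*Pcdh17*, chr14:84443313-84443562, plus strand: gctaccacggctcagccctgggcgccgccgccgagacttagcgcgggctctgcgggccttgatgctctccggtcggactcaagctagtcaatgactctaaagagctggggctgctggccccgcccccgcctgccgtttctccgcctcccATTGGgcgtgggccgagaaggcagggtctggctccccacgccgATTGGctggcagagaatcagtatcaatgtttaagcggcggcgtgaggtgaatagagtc
The capitals begin at -65 from the start in *Pcdh19*, at -82 in *Pcdh9* and at -50 in *Pcdh10*, and *Pcdh17* holds 2 such matches. From another listed start of *Pcdh9*, not shown, the match lies at -92. The bases that follow the start of *Pcdh19* were not found in the annotated transcripts of the gene. CCAAT or ATTGG was found in the windows of 7 of the 8 members (87.5%, all but *Pcdh7*), against 33.9% of 32841 promoter windows of the same length. These letters were chosen after the sequences had been seen. The homeodomain core TAAT or its complement ATTA was found in 3 of the 8 (*Pcdh8*, *Pcdh18* and *Pcdh20*), against 54.9% of all windows, and the longer palindrome TAATTA in 0 of the 8, against 4.84%. TAATTA holds both shorter forms, so these searches overlap. The windows shown were also rich in G and C: their G and C content was 69.2% in *Pcdh19*, 63.6% in *Pcdh9*, 63.2% in *Pcdh10* and 64.8% in *Pcdh17*, where the median of all windows was 52.4%. Of the members not shown, *Pcdh18* (68.0%) and *Pcdh7* (58.4%) were above that median, and *Pcdh8* (51.2%) and *Pcdh20* (42.4%) were below it. A match is only a match of letters, and its absence from a window says nothing about a factor.

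Of the 9 members, 7 passed the filter, which asked for over 1 CPM in 4 or more of the 16 samples. *Pcdh17* passed with 5 samples, 4 of them *GFP*-NSPCs of replicates 1 to 4. *Pcdh8* had 2 reads in all, both in *GFP* replicate 4 (0.67 CPM), and *Pcdh20* had 1 read, in *GFP* replicate 1 (0.4 CPM). The 3 reads of the floor allow a level of up to 0.911 to 1.66 CPM in a sample with none, so these genes were not detectable at this depth. *Pcdh8* is known as an activity-induced delta 2 protocadherin that acts on N-cadherin at synapses.

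The first question was whether the members differed between *Dbx2*-NSPCs and *GFP*-NSPCs over all 16 samples. A gene was called when its Benjamini-Hochberg adjusted p from limma, over 12533 genes, was under 0.05. Lower in *Dbx2*-NSPCs were *Pcdh19*, 4.56-fold, and *Pcdh9*, 1.7-fold, which made 2 of the 7 members tested. Of all tested genes 15.8% were called in either direction, and 7.78% of all tested genes were called lower. Since the members were grouped with this contrast known, nothing is read from their count. The median of the 7 log2 differences was -0.62, against -0.02 over all tested genes. The call of *Pcdh9* was lost when any of *GFP* replicates 1, 2, 3 and 4 or *Dbx2* replicates 1, 5, 6, 7 and 8 was left out, which left 1 member called, *Pcdh19*. The difference of *Pcdh9* was then -0.76 to -0.68, against -0.77 with all samples. With the replicate number as a block or the set as a covariate it was -0.77 and called. For *Pcdh7*, *Pcdh10* and *Pcdh17* the overall difference averaged opposite directions in the sets, which are described next. Called within replicates 1 to 4 were 5 members, all lower, where 20.5% of all tested genes were called, 9.85% on the lower side. *Pcdh17* was among the 5, and it had passed the filter through the *GFP*-NSPCs of this set, which fixed its call in part. Called within replicates 5 to 8 were also 5, 2 of them higher and 3 lower, where 20.7% of all tested genes were called, 10.5% higher and 10.2% lower. The medians over the members in these sets were -0.96 and -0.05.

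**Figure D1:**
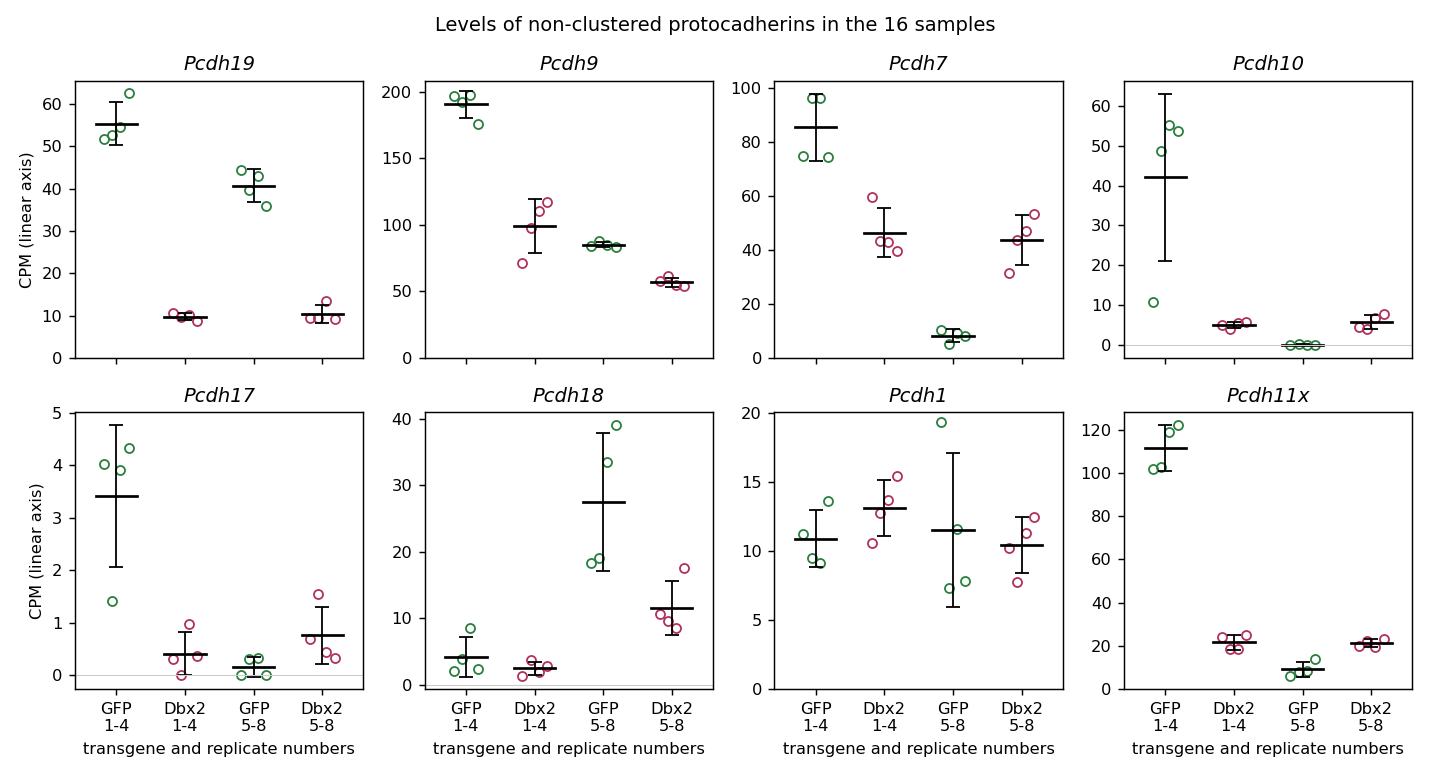
Levels of the 7 tested members and of *Pcdh11x* on linear axes in CPM, for *GFP*-NSPCs (green) and *Dbx2*-NSPCs (red) of replicates 1 to 4 and 5 to 8. Circles are samples, the wide bar is the mean and the whiskers are the SD (n = 4 each). *Pcdh19* is lower in *Dbx2*-NSPCs of both sets, whereas *Pcdh7*, *Pcdh10* and *Pcdh11x* are low in *GFP*-NSPCs of replicates 5 to 8 and alike in the *Dbx2*-NSPCs of both sets.

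*Pcdh19* is a delta 2 member on the X chromosome, which binds homophilically and in complex with N-cadherin and is the gene of a clustering epilepsy. In *GFP*-NSPCs it was at 51.57, 52.55, 54.41 and 62.65 CPM in replicates 1 to 4 and at 44.33, 39.57, 43.03 and 35.78 CPM in replicates 5 to 8. In *Dbx2*-NSPCs it was at 10.6, 9.71, 10.09 and 8.61 CPM in replicates 1 to 4 and at 9.5, 9.32, 13.54 and 9.12 CPM in replicates 5 to 8. Each *Dbx2*-NSPC sample thus lay below each *GFP*-NSPC sample, with the nearest at 13.54 and 35.78 CPM, and groups that did not overlap were found for 3.41% of all tested genes. The log2 difference over all samples was -2.19 (SE 0.13, 95% interval -2.46 to -1.92). Within the sets it was -2.44 (-2.78 to -2.1) and -1.94 (-2.28 to -1.59). In order of their means the *GFP*-NSPCs of replicates 1 to 4 came first at 55.3 CPM and those of replicates 5 to 8 next at 40.7 CPM, with no overlap. The *Dbx2*-NSPCs followed at 10.4 CPM in replicates 5 to 8 and 9.75 CPM in replicates 1 to 4, and these overlapped.

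*Pcdh9* is a delta 1 member expressed widely in the brain. Its level in *GFP*-NSPCs was 196.6, 192.58, 197.78 and 175.95 CPM in replicates 1 to 4 and 84.23, 87.72, 84.69 and 83.48 CPM in replicates 5 to 8. Its level in *Dbx2*-NSPCs was 71.28, 98.03, 110.39 and 117.33 CPM in replicates 1 to 4 and 57.72, 61.5, 54.63 and 54.02 CPM in replicates 5 to 8. The transgene groups overlapped over all samples but not within either set, and groups without overlap were found for 19.6% of all tested genes in replicates 1 to 4 and 24.8% in replicates 5 to 8. The log2 difference was -0.77 overall (SE 0.241, -1.27 to -0.27), -0.96 in replicates 1 to 4 (-1.21 to -0.71) and -0.58 in replicates 5 to 8 (-0.82 to -0.33). The *Dbx2*-NSPCs of replicates 1 to 4 (99.3 CPM) and the *GFP*-NSPCs of replicates 5 to 8 (85.0 CPM), which stood in the middle of the order of means, overlapped. The transgene groups of *Pcdh19* and *Pcdh9* did not overlap within either set. It follows that both were lower in the *Dbx2*-NSPC sample of all 8 replicate numbers, by -2.79 to -1.63 and -1.46 to -0.51 on the log2 scale. *Pcdh19* and *Pcdh9* were the members called in both sets in the same direction, as 7.4% of all tested genes were.

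*Pcdh7* is a delta 1 member whose tail binds the histone chaperone and phosphatase inhibitor SET, and it is known from axon growth in the visual system. In *GFP*-NSPCs it was at 74.93, 96.29, 96.12 and 74.31 CPM in replicates 1 to 4 but at 10.53, 5.21, 9.22 and 8.22 CPM in replicates 5 to 8. The *Dbx2*-NSPCs were at 59.72, 43.4, 42.98 and 39.47 CPM in replicates 1 to 4 and at 31.33, 43.49, 46.95 and 53.35 CPM in replicates 5 to 8. The *Dbx2*-NSPCs of both sets overlapped and lay between the *GFP*-NSPCs of one set and those of the other. *Pcdh7* was 1.84-fold lower in *Dbx2*-NSPCs of replicates 1 to 4 (log2 difference -0.88, SE 0.195, -1.28 to -0.48) and 5.09-fold higher in those of replicates 5 to 8 (2.35, SE 0.195, 1.95 to 2.75). Over all samples the difference was 0.73 (-0.42 to 1.89) and was not called. It was -0.04 with DESeq2 and -0.05 with edgeR on the recovered reads, also not called.

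*Pcdh10*, a delta 2 member, acts in axon growth through the ventral forebrain and recruits the WAVE complex. In *GFP*-NSPCs it was at 10.88, 48.67, 55.07 and 53.65 CPM in replicates 1 to 4 and at 0, 0.31, 0 and 0 CPM in replicates 5 to 8. The *Dbx2*-NSPCs were at 5.14, 3.95, 5.54 and 5.74 CPM in replicates 1 to 4 and at 4.58, 4.04, 6.77 and 7.77 CPM in replicates 5 to 8. The *Dbx2*-NSPCs of both sets again overlapped, while the *GFP*-NSPCs lay above them in the first set and below them in the second, where the gene had 1 read in the 4 samples together. The log2 difference was -2.7 in replicates 1 to 4 (SE 0.399, -3.52 to -1.88) and 3.44 in replicates 5 to 8 (SE 0.399, 2.61 to 4.26). The second of these depends on the pseudocount of 0.5 CPM, and was 5.32 with 0.1 CPM and 1.88 with 2 CPM. As a ratio of pooled levels, 64 reads in *Dbx2*-NSPCs against 1 read in *GFP*-NSPCs gave 59.4, with a 95% counting interval from 10.3 to 2381. Such intervals cover counting error only. Without *GFP* replicate 1, the sample at 10.88 CPM, the difference in replicates 1 to 4 was -3.25. Over all samples it was 0.37 (-1.74 to 2.48) and was not called.

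*Pcdh17*, a delta 2 member of the corticobasal circuits, was near the floor outside one group. In *GFP*-NSPCs it was at 4.03, 1.41, 3.91 and 4.33 CPM in replicates 1 to 4 and at 0, 0.31, 0.34 and 0 CPM in replicates 5 to 8. In *Dbx2*-NSPCs it was at 0.32, 0, 0.98 and 0.36 CPM in replicates 1 to 4 and at 0.7, 1.55, 0.45 and 0.34 CPM in replicates 5 to 8. All *GFP*-NSPC samples of replicates 1 to 4 had more than 3 reads, as had 1 other sample, *Dbx2* replicate 6. The log2 difference was -2.12 in replicates 1 to 4 (SE 0.467, -3.08 to -1.15), where the groups did not overlap, and 0.88 in replicates 5 to 8 (-0.08 to 1.84), where they did and the gene was not called. The value in replicates 1 to 4 was -3.09 with a pseudocount of 0.1 CPM and -1.14 with 2 CPM.

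*Pcdh18*, a delta 2 member that binds the adaptor Dab1, differed more between the sets than between the transgenes. In *GFP*-NSPCs it was at 2.01, 3.88, 8.47 and 2.33 CPM in replicates 1 to 4 and at 18.29, 19.02, 33.47 and 39.07 CPM in replicates 5 to 8. In *Dbx2*-NSPCs it was at 1.28, 3.64, 1.95 and 2.87 CPM in replicates 1 to 4 and at 10.56, 9.63, 8.58 and 17.56 CPM in replicates 5 to 8. The transgene groups overlapped in the first set and stood apart, narrowly, in the second. The log2 difference was -0.55 in replicates 1 to 4 (-1.32 to 0.22), not called, and -1.19 in replicates 5 to 8 (SE 0.371, -1.95 to -0.42), called. That call was lost, with differences of -1.16 to -0.99, without any of *GFP* replicates 7 and 8 and *Dbx2* replicates 5, 6 and 7. Over all samples the difference was -0.87 (-2.14 to 0.41) and was not called. With the replicate number as a block it was -0.87 and called, which made 3 members called, where 21.7% of all tested genes were.

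*Pcdh1* (chr18:38185914-38212053) is a delta 1 member known as an epithelial adhesion protein that binds Smad3. It was at 11.28, 9.52, 9.12 and 13.66 CPM in *GFP*-NSPCs of replicates 1 to 4 and at 19.39, 7.36, 11.61 and 7.81 CPM in those of replicates 5 to 8. With the *Dbx2* transgene the levels were 10.6, 12.75, 13.68 and 15.43 CPM, and 10.21, 7.77, 11.29 and 12.49 CPM. All 4 groups overlapped with their neighbours in the order of means. The log2 difference over all samples was 0.1 (SE 0.192, -0.3 to 0.51), so that differences of more than 0.51 in either direction lay outside the interval.

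**Figure D2:**
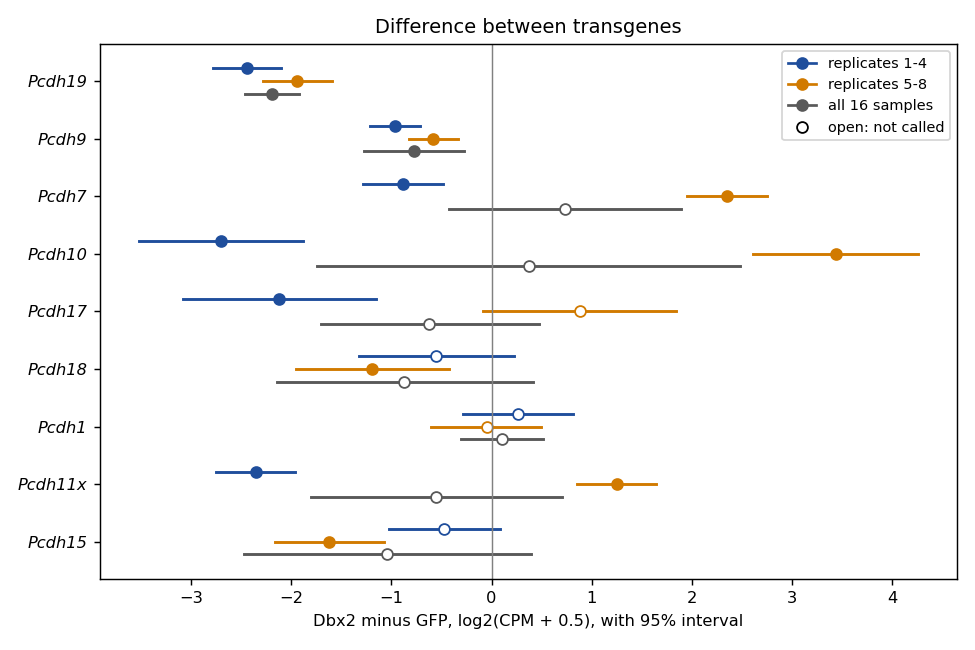
Difference between the transgenes, *Dbx2* minus *GFP*, on the log2(CPM + 0.5) scale for the 7 tested members and for *Pcdh11x* and *Pcdh15*, with 95% intervals from limma in replicates 1 to 4 (blue), in replicates 5 to 8 (orange) and over all 16 samples (grey). Filled points were called. *Pcdh7*, *Pcdh10* and *Pcdh11x* lie below 0 in replicates 1 to 4 and above 0 in replicates 5 to 8, and *Pcdh19* and *Pcdh9* lie below 0 in both.

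The transgene difference of replicates 5 to 8 was then set against that of replicates 1 to 4. It was higher by 6.13 for *Pcdh10* (SE 0.565, 95% interval 4.97 to 7.3), by 3.23 for *Pcdh7* (SE 0.275, 2.66 to 3.79) and by 3.0 for *Pcdh17* (SE 0.66, 1.64 to 4.36) on the log2 scale. These 3 of the 7 members were called, and 9.44% of all tested genes were. As *Pcdh17* had passed the filter through the group in which it was high, its call was fixed in part by the filter. The value for *Pcdh10* was 8.11 with a pseudocount of 0.1 CPM and 4.31 with 2 CPM, and for *Pcdh17* these were 4.96 and 1.48. For *Pcdh9* the difference was 0.39 (0.04 to 0.74) and for *Pcdh18* -0.64 (-1.72 to 0.45), and neither was called. Calls in opposite directions in the sets were made for *Pcdh7* and *Pcdh10* among the members and for 1.76% of all tested genes.

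**Figure D3:**
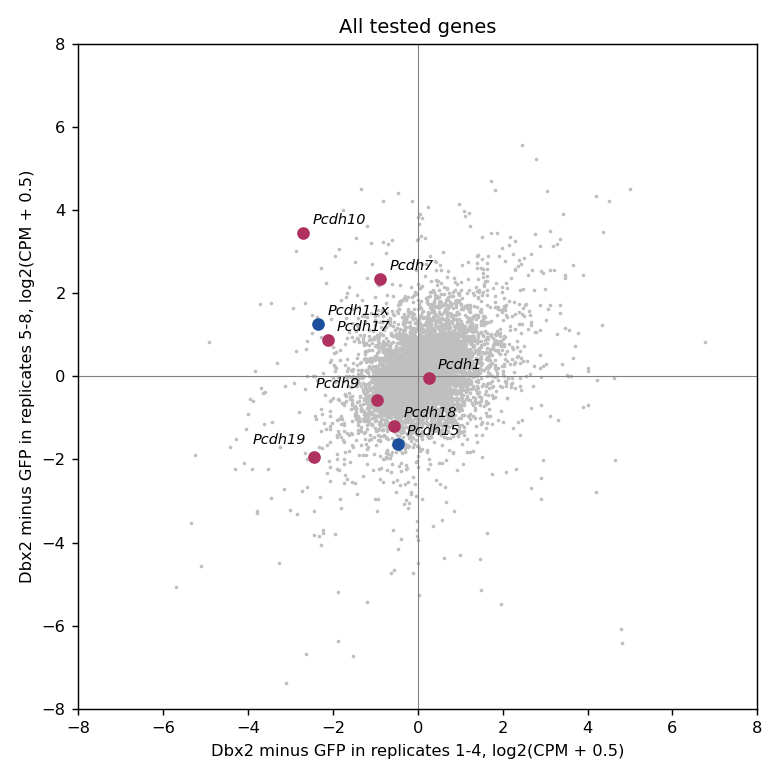
Transgene difference in replicates 5 to 8 against that in replicates 1 to 4 on the log2(CPM + 0.5) scale for 12533 tested genes (grey), with the 7 tested members in red and *Pcdh11x* and *Pcdh15* in blue. *Pcdh7*, *Pcdh10*, *Pcdh17* and *Pcdh11x* lie in the upper left, lower in the first set and higher in the second, and *Pcdh9*, *Pcdh18*, *Pcdh19* and *Pcdh15* in the lower left.

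The difference between the sets within each transgene comes from the samples of the transgene differences above, so it is also given without a test of the members. No label ties the sets to a line, a date or a batch, so a line, a culture and a run cannot be told apart. In *GFP*-NSPCs, 6 of the 7 members were called, where limma called 28.6% of all tested genes. *Pcdh17* had passed the filter through the group in which it was high, so its call was fixed in part by the filter. *Pcdh10* was lower in replicates 5 to 8 by 6.0 on the log2 scale (-6.0, SE 0.399), and *Pcdh7* was 9.97-fold lower (-3.32, SE 0.195). *Pcdh17* was lower as well (-2.52, SE 0.467), as was *Pcdh9*, 2.23-fold (-1.16, SE 0.121). *Pcdh18* was 6.48-fold higher in replicates 5 to 8 (2.7, SE 0.371). In each of these 5 genes the sets did not overlap, and groups that did not overlap were found for 28.9% of all tested genes. As ratios of pooled levels, *Pcdh10* was 453 times as high in replicates 1 to 4 (495 reads against 1, counting interval 81.0 to 17936) and *Pcdh17* was 17.9 times as high (39 reads against 2, 4.62 to 153). On the log2 scale these were -7.96 and -3.98 with a pseudocount of 0.1 CPM and -4.19 and -1.29 with 2 CPM.

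The call of *Pcdh19* in *GFP*-NSPCs was close to the threshold. It was lower in replicates 5 to 8 by 1.36-fold (-0.44, SE 0.165, 95% interval -0.78 to -0.1), and the call was lost without any of the 8 *GFP*-NSPC samples or of *Dbx2* replicates 2, 3 and 6, with differences of -0.48 to -0.38. *Pcdh1* was at -0.01 (-0.55 to 0.54).

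In *Dbx2*-NSPCs 2 of the 7 members were called between the sets, where 17.5% of all tested genes were. *Pcdh9* was 1.71-fold lower in replicates 5 to 8 (-0.77, SE 0.121) and *Pcdh18* was 4.17-fold higher (2.06, SE 0.371), and for both genes the sets did not overlap, as for 19.8% of all tested genes. The others gave -0.09 for *Pcdh7* (95% interval -0.49 to 0.31), 0.14 for *Pcdh10* (-0.69 to 0.96), 0.48 for *Pcdh17* (-0.48 to 1.44), 0.07 for *Pcdh19* (-0.27 to 0.41) and -0.32 for *Pcdh1* (-0.87 to 0.22). A set difference called in *GFP*-NSPCs but not in *Dbx2*-NSPCs was found for 4 members, *Pcdh7*, *Pcdh10*, *Pcdh17* and *Pcdh19*, and for 18.6% of all tested genes. For *Pcdh17* this was fixed in part by the filter. *Dbx2* itself was also lower in *GFP*-NSPCs of replicates 5 to 8 than of replicates 1 to 4 (log2 difference -1.77, SE 0.165, limma adjusted p = 9.42e-09), and its part in these differences was not tested.

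**Figure D4:**
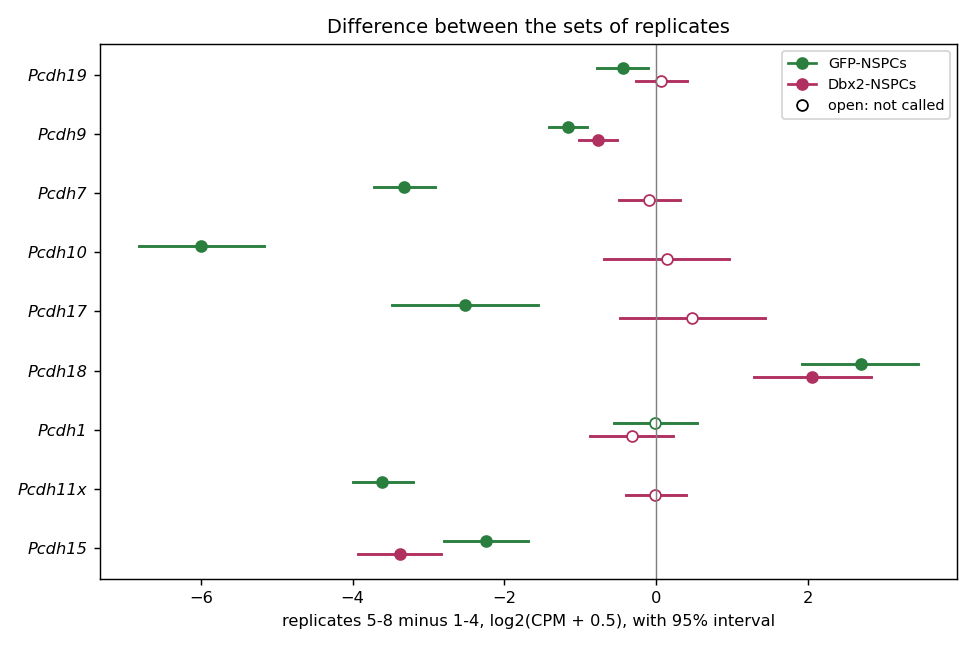
Difference between the sets, replicates 5 to 8 minus replicates 1 to 4, on the log2(CPM + 0.5) scale within *GFP*-NSPCs (green) and within *Dbx2*-NSPCs (red), with 95% intervals from limma, for the 7 tested members and for *Pcdh11x* and *Pcdh15*. Filled points were called. *Pcdh9*, *Pcdh18* and *Pcdh15* differ between the sets with both transgenes, and *Pcdh7*, *Pcdh10*, *Pcdh17*, *Pcdh11x* and, close to the threshold, *Pcdh19* were called in *GFP*-NSPCs alone.

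The remaining protocadherins outside the clusters, *Pcdh11x*, *Pcdh12* and *Pcdh15*, served for comparison. *Pcdh12*, a vascular endothelial protocadherin whose gene lies close to *Pcdh1*, had 1 read in all samples. *Pcdh11x*, an X-linked delta 1 gene, was at 101.93, 102.99, 118.93 and 122.3 CPM in *GFP*-NSPCs of replicates 1 to 4 and at 6.1, 7.97, 8.2 and 13.98 CPM in those of replicates 5 to 8. In *Dbx2*-NSPCs it was at 24.08, 18.51, 18.56 and 25.12 CPM and at 20.06, 22.36, 19.41 and 23.3 CPM. It therefore had the same order of groups as *Pcdh7*: the *Dbx2*-NSPCs of both sets overlapped, between high and low *GFP*-NSPCs. By limma it was lower in *Dbx2*-NSPCs of replicates 1 to 4 (-2.35, SE 0.192, adjusted p = 2.2e-09), higher in those of replicates 5 to 8 (1.25, SE 0.192, adjusted p = 2.68e-05), and the difference between these was 3.6 (SE 0.271, adjusted p = 1.18e-09).

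*Pcdh15*, a component of the tip links of sensory hair cells, averaged 86.7 ± 23.0 CPM with the *GFP* and 61.4 ± 10.3 CPM with the *Dbx2* transgene in replicates 1 to 4, and 18.2 ± 5.4 and 5.76 ± 2.19 CPM in replicates 5 to 8 (SD, n = 4 each). It differed between the transgenes in replicates 5 to 8 (-1.62, SE 0.266, limma adjusted p = 6.28e-05) but not by the test in replicates 1 to 4 (-0.47, adjusted p = 0.227). These differed from each other by -1.14 (SE 0.376), which limma did not call (adjusted p = 0.057). That difference was called with the replicate number as a block (-1.14, adjusted p = 0.0397), with edgeR (-1.18, adjusted p = 0.0325) and with DESeq2 (-1.18, adjusted p = 0.0132). It was also called by limma without any of *GFP* replicates 3 and 8 or *Dbx2* replicates 1, 5 and 8 (-1.37 to -1.24, adjusted p from 0.0164 to 0.048). Over all samples it was not called (-1.04, limma adjusted p = 0.331), though with the replicate number as a block it was (-1.04, adjusted p = 0.00879). Between the sets *Pcdh15* was lower in replicates 5 to 8 with both transgenes. The difference was 4.73-fold in *GFP*-NSPCs (-2.24, SE 0.266, limma adjusted p = 4.92e-07) and 10.4-fold in *Dbx2*-NSPCs (-3.38, SE 0.266, limma adjusted p = 1.16e-09).

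Of the clustered protocadherins, which give neurons their individual surface identity, 26 of 57 were tested and 6 were called over all samples, all of them higher in *Dbx2*-NSPCs, against the 8.03% of all tested genes called on the higher side. Their median log2 difference was 0.46. The 6 comprised 5 of 19 tested beta genes and 1 of 7 tested gamma genes, while 0 of 14 alpha genes passed the filter. The alpha genes share their 3′ exons with each other, and so do the gamma genes, so that counts of 3′ reads cannot be assigned to single genes of these clusters with certainty. *Pcdhb9* averaged 5.47 ± 5.29 CPM with the *GFP* and 13.9 ± 2.96 CPM with the *Dbx2* transgene (SD, n = 8 each, log2 difference 1.79, limma adjusted p = 0.0104). *Pcdhb7* (1.63, limma adjusted p = 0.0174) and *Pcdhb4* (1.56, limma adjusted p = 0.00699) were higher too. For these 3 beta genes the difference was called in replicates 5 to 8 and not in replicates 1 to 4, and it differed between the sets by 2.39, 3.3 and 2.03 (limma adjusted p = 0.00131, 1.68e-05 and 0.00853, in that order). *Pcdhga11* (2.29, limma adjusted p = 0.0424) was at 17.3 ± 4.45 CPM in *Dbx2*-NSPCs of replicates 1 to 4 (SD, n = 4) and between 0.245 and 0.615 CPM on average in the other groups. The 4 samples of the high group were enough for the filter, so its call was fixed in part by the filter. Its call was lost without any of *Dbx2* replicates 1 to 4 or of *GFP* replicates 1 to 5, 7 and 8 (1.94 to 2.36, adjusted p from 0.0532 to 0.0858). It was also lost with no filter (2.29, limma adjusted p = 0.0605) and with a pseudocount of 0.1 CPM (3.02, limma adjusted p = 0.061).

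Of the classical cadherins, 9 of 18 were tested and 3 were called over all samples, 1 higher and 2 lower, with a median of -0.04. *Cdh6* averaged 58.8 ± 19.3 CPM with the *GFP* and 18.8 ± 8.97 CPM with the *Dbx2* transgene (SD, n = 8 each, log2 difference -1.68, limma adjusted p = 0.000833). *Cdh10* fell less (-0.81, limma adjusted p = 0.0374), a call that was lost without any of *GFP* replicates 1, 2, 3, 4 and 7 or *Dbx2* replicates 3, 4, 5, 6 and 8 (-0.81 to -0.69, adjusted p from 0.0551 to 0.0754). *Cdh22* was 52.8 ± 11.9 and 86.9 ± 14.4 CPM (0.73, limma adjusted p = 0.000955), with no overlap between the transgenes. Of the atypical cadherins of the Fat, Dachsous and Celsr families, which set planar polarity and tissue growth, 7 of 9 were tested and 0 were called by limma, while 3 had an unadjusted p under 0.05. Leaving out *GFP* replicate 2 or *Dbx2* replicate 4 brought the count to 2, and leaving out *GFP* replicate 1, 6 or 7 or *Dbx2* replicate 1, 3 or 6 brought it to 1. With the replicate number as a block 3 were called, where 21.7% of all tested genes were. These 3 were *Fat3* (-0.62, limma adjusted p = 0.0479), *Dchs1* (-0.47, limma adjusted p = 0.00195) and *Celsr2* (0.51, limma adjusted p = 0.00156), which were named after their values were seen. With edgeR and with DESeq2 on the recovered reads 2 were called.

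Among subunits of the WAVE complex, 9 of 11 were tested and 3 were called, with a median of -0.1. *Wasf1*, which encodes the neuronal WAVE protein, and *Abi2*, an adaptor of the complex, were lower in *Dbx2*-NSPCs (-0.48 and -0.35, limma adjusted p = 0.0239 and 0.00473), and *Cyfip2*, whose protein holds the complex inactive, was higher (0.57, limma adjusted p = 0.0449). The call of *Cyfip2* was lost without any of *GFP* replicates 4 to 7 or *Dbx2* replicates 3 to 8 (0.47 to 0.6, adjusted p from 0.0524 to 0.0887). Its difference was -0.01 in replicates 1 to 4 and 1.14 in replicates 5 to 8. Of 15 other cytoplasmic partners of delta protocadherins and cadherins, all tested, 4 were called, with a median of -0.18. *Ctnna2*, the neuronal alpha catenin that links cadherins to actin, averaged 2.16 ± 2.39 CPM with the *GFP* and 10.4 ± 2.45 CPM with the *Dbx2* transgene (SD, n = 8 each, log2 difference 2.41, limma adjusted p = 0.000195), with no overlap. *Dab1*, which encodes the partner of *Pcdh18*, was lower (51.1 ± 8.91 and 27.1 ± 8.44 CPM, -0.95, limma adjusted p = 0.000935), also with no overlap. *Smad3*, which encodes the partner of *Pcdh1*, was higher (0.79, limma adjusted p = 0.00417), and *Jup*, plakoglobin, was lower (-0.69, limma adjusted p = 0.00824). The share called among all tested genes was 15.8% for each of these lists.

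The genes around the members were taken as the 10 nearest tested genes on each side, 102 genes in all since windows on chromosomes 3 and 14 overlap. Of these, 14 were called over all samples, 7 in each direction (13.7%, against 15.8% of all tested genes), with a median log2 difference of -0.04. By window, 4 were called higher and 0 lower around *Pcdh1*, and 0 and 2 in each window of chromosome 14. These counts were 1 and 3 in the windows of chromosome 3, 0 and 1 around *Pcdh7* and 2 and 1 around *Pcdh19*. In replicates 5 to 8 the share of neighbours called was 21.6%, against 20.7% of all tested genes. In replicates 1 to 4 it was 19.6%, against 20.5%.

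The tested genes of at least 10 CPM on average that were most like each member over the 16 samples were found by the mean absolute difference of centred log2 levels. *Mpped2*, *Tmtc2* and *Cacng5* were nearest to *Pcdh19* (0.265, 0.279 and 0.334, where *Pcdh19* itself deviated from its mean by 1.09). *Mpped2* was at 23.5 and 24.3 CPM in *GFP*-NSPCs of the sets and at 6.14 and 5.89 CPM in *Dbx2*-NSPCs. For *Pcdh9* they were *Prkar2b*, *Acat2* and *Stx2* (0.171, 0.18 and 0.187, against 0.539). *Kcnip3*, *Mamdc2* and *Atp1b2* were nearest to *Pcdh7* (0.39, 0.391 and 0.392, against 1.03). *Mamdc2* was at 49.8 CPM in *GFP*-NSPCs of replicates 1 to 4, 6.29 CPM in those of replicates 5 to 8, and 29.5 and 25.1 CPM in *Dbx2*-NSPCs.

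*Pcdh10* was most like *Cadm2*, *Pcdh7* and *St6galnac5* (0.723, 0.801 and 0.826, against 1.64), so that a fellow member was among its nearest genes. *Cadm2*, a synaptic adhesion molecule of the immunoglobulin superfamily, was at 76.6 and 0.698 CPM in *GFP*-NSPCs of replicates 1 to 4 and 5 to 8 and at 16.2 and 5.92 CPM in *Dbx2*-NSPCs. *Rprm*, *Vcam1* and *Nrxn3* were nearest to *Pcdh17*, *Trp53i11*, *Fzd4* and *Chd3* to *Pcdh18*, and *Ehd1*, *Zcchc2* and *Gtpbp6* to *Pcdh1*. For *Pcdh17* and *Pcdh1* these distances (0.524 to 0.533 and 0.181 to 0.197) were not far below the mean deviation of the member itself, 0.906 and 0.279, so the likeness is loose. These are descriptions over samples that share transgenes, sets and libraries.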

How the data were processed

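RNA of the cultures (100 ng) was made into QuantSeq 3′ mRNA libraries and read as single 101-base reads. The authors deposited 1 table of CPM values, each gene's reads scaled to a common library total and rounded, with no table of raw counts used here, and per the labels used FastQC 0.11.8, STAR 2.5.0a, edgeR 3.36 and GRCm38/mm10. The counting tool and its strand setting are not given in the sources used here. Nearly all values (99.613 to 100% per sample, within 0.01 CPM) were whole multiples of what 1 read is worth, so reads and depth could be recovered.

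The 12533 of 30386 genes that exceeded 1 CPM in 4 or more of the 16 samples were tested with limma 3.58.1 (eBayes with trend, 2-sided) on log2(CPM + 0.5), a scale that understates changes of low genes, and adjusted by Benjamini-Hochberg over all of them. The overall contrast had the transgene as its only term, since the labels give no line. A model with 4 means (transgene by set of numbers) gave the contrasts within and between the sets. The model was checked on simulated data that held known transgene differences and no differences between the sets. That check therefore does not show how differences between the sets are recovered. The members, lists, sets and rules for named genes (the 4 called genes of each list with the largest difference, and the 3 nearest genes of each member) were chosen with earlier results of these data known. Same-numbered samples of both transgenes deviated together from their group means (correlation over genes 0.152 to 0.303, all over 0.1). Differently numbered samples of the same set did so to a like degree (mean correlation 0.161 to 0.242), so this does not show a pairing by number. From the means within the sets the same-number correlation was -0.00741 to 0.119. That with the other numbers of the set averaged -0.0352 to 0.00274. Whether samples were paired by number was not tested. Fits with the number as a block are given as an alternative where they changed a call.

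Alternatives were pseudocounts of 0.1 and 2 CPM, no filter, a mean of at least 5 CPM, TMM and median-of-ratios scaling, edgeR 4.0.16 (quasi-likelihood) and DESeq2 1.42.0 on recovered reads, the replicate number as a block, the set as a covariate, each set alone and leaving out each sample. Coordinates are from GENCODE M21 (GRCm38) and promoters from RefSeq. The depth limits a level to steps of 1 read.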

Additional observations from a re-analysis of the deposited data

Results flagged for a closer look

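Of 41 groups of values in which more than 1 sample had reads, 4 held a sample whose gap to the nearest other was above Dixon's 95% critical value, where chance flags about 1 group in 20. Groups of 8 samples and the sets of 4 within them share samples, and *Pcdh19* in *Dbx2* replicate 7 gave 2 of the 4. *Pcdh10* in *GFP* replicate 1 was at 10.88 CPM, where the other *GFP*-NSPCs of replicates 1 to 4 were at 48.67 to 55.07 CPM. *Pcdh17* in *GFP* replicate 2 was at 1.41 CPM, below 3.91 to 4.33 CPM in the others of its set. *Pcdh19* in *Dbx2* replicate 7 was at 13.54 CPM, above 8.61 to 10.6 CPM in the other *Dbx2*-NSPCs. A further 5 groups had reads in only 1 sample, which is past that value by construction and says nothing about chance, namely 0.67 CPM of *Pcdh8* in *GFP* replicate 4, 0.4 CPM of *Pcdh20* in *GFP* replicate 1 and 0.31 CPM of *Pcdh10* in *GFP* replicate 6.

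The transgene difference was higher in replicates 5 to 8 than in replicates 1 to 4 for *Pcdh10* (by 6.13 on the log2 scale), *Pcdh7* (3.23) and *Pcdh17* (3.0), which is a description since these members were chosen with the contrasts known. For *Pcdh11x*, which is no member, it was higher by 3.6 (limma adjusted p = 1.18e-09). In the sets, the *GFP*-NSPCs differed and the *Dbx2*-NSPCs overlapped for all 4 genes.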

How the results depend on the processing

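Of 333 recomputed counts of called genes, 306 stayed within 1.5 times the reported count, and of 1742 recomputed values of single genes 1643 kept their direction and their side of the threshold. The members called over all samples numbered 1 to 2 when a sample was left out. With the replicate number as a block or with the set as a covariate, 1 of the other protocadherins outside the clusters, *Pcdh15*, was called over all samples, against 0, and *Pcdh18* joined *Pcdh9* and *Pcdh19*. These fits called more of all tested genes as well, 21.7% with the block and 24.2% with the covariate, against 15.8%. The fit with the replicate number as a block also called 3 atypical cadherins against 0, as did the covariate. Their count was 2 with DESeq2 or edgeR, 1 with TMM scaling, median-of-ratios scaling or no filter, and 0 to 2 when a sample was left out. Of the other counts of calls recomputed here, the block changed none by more than 1.5 times, but for *Pcdh15* it also brought about a call of the difference between the sets (-1.14). With the set as a covariate, 23 of the 102 neighbouring genes were called against 14, where 24.2% of all tested genes were called against 15.8%. Changes of sign concerned differences that were not called. For *Pcdh10* over all samples they were -1.94 with DESeq2, -1.96 with edgeR, -0.27 with a pseudocount of 2 CPM and -0.09 to 0.89 when a sample was left out. For *Pcdh7* they were -0.04 with DESeq2 and -0.05 with edgeR. Leaving out a sample moved the set difference in *Dbx2*-NSPCs between -0.19 and 0.06 for *Pcdh7*, -0.01 and 0.28 for *Pcdh10*, -0.06 and 0.12 for *Pcdh19* and -0.08 and 0.07 for *Pcdh11x*. For *Pcdh1* the set difference in *GFP*-NSPCs was 0.01 with DESeq2 or edgeR and -0.28 to 0.16 when a sample was left out, and the transgene difference in replicates 5 to 8 was -0.22 to 0.22. Without the filter, *Pcdh18* in replicates 5 to 8 and *Pcdh19* between the sets of *GFP*-NSPCs were no longer called. With a mean of at least 5 CPM, *Pcdh17* was not tested. The cause of these changes was not tested. Depth limits *Pcdh8*, *Pcdh17*, *Pcdh20* and the low group of *Pcdh10*, where a fold change depends on the pseudocount.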
